A study of Arabidopsis thaliana with 12 samples.

Results

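As a view of cell division, transcripts of 4 Arabidopsis thaliana genes were followed in wounded and untreated plants. These were the histone H3 genes AT1G09200 and AT1G13370, and the kinesin genes AT3G44050 and AT2G37420. The genes were chosen by locus, with earlier results of these data known, and each is named by a probe that lists no further gene. They are 4 of the 691 loci with such a single-gene probe, and each has 1. The first group of plants was wild type of the Columbia 0 ecotype, cut mechanically in the leaves and compared 2 days after that wounding. The second group was untreated wild type of the same ecotype. The labels gave neither the age of the plants nor the harvest day of the untreated ones, so time and wounding cannot be told apart. Each group held 6 arrays of total RNA, and the labels did not say whether these came from separate plants. The p-values therefore reflect array-to-array variation alone, some or all of which may be technical.

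Histone H3 is a core protein of the nucleosome, around which DNA is wound. Cells make most of their H3 while DNA is replicated, and plants carry several H3 genes whose proteins are nearly identical. Kinesins are motor proteins that walk along microtubules. Some of them help to separate the poles of the mitotic spindle, and others work in the phragmoplast, the structure that builds the new cell wall between daughter cells. In grown leaves few cells divide, and cutting a plant is known to bring some cells near the cut back into division.

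The deposited table held 3439 probes as linear intensities, with a mean per array between 0.983 and 1.09. Wounded replicate 4 had correlations with the other 11 arrays, taken across probes, between 0.437 and 0.514. Within groups 5 pairs of arrays were alike, with correlations between 0.952 and 0.984 (untreated 1 and 2, 3 and 4, 5 and 6, wounded 2 and 3, 5 and 6). All other pairs among the 11 arrays lay between 0.871 and 0.944, and the labels did not give the alike pairs. Because of wounded replicate 4, the differences between the groups are given over 12 arrays and over the 11 without it. Of 22 markers of green leaf tissue, 6 had a single-gene probe, which lay between the 41.4th and the 99.7th percentile of the probes of an array over those 11. None of the 9 root or 8 flower and seed markers had a single-gene probe. In these bulk samples, fewer dividing cells and less RNA per cell cannot be told apart.

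None of the 4 genes passed the threshold of 0.05 on the adjusted p, over 12 or over 11 arrays. Of all probes tested with limma, 0% passed over the 12 arrays (0 of 3233, with 376 or 11.6% at an unadjusted p under 0.05). Over the 11 arrays 2.22% passed (71 of 3203). These fits took alike arrays as separate samples. With each alike pair averaged, 0 probes passed over the 11 arrays. Wounded and untreated values overlapped for all 4 genes in both sets of arrays, while 3.5% of all probes had groups without overlap over 12 arrays and 5.81% over 11. None of the 4 genes was listed at 0 on any of the 12 arrays.

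AT1G09200, on chromosome 1, is annotated as histone H3.1, the form that is made chiefly during DNA replication. Its deposited intensity ran from 0.153 over a median of 0.174 to 0.272 in wounded plants, and from 0.148 over a median of 0.216 to 0.231 in untreated plants. The probe was dim, between the 12.5th and the 30.7th percentile of all probes on the 11 arrays without wounded replicate 4. After quantile normalization its log2 intensity averaged -2.28 ± 0.37 in wounded plants and -2.52 ± 0.49 in untreated plants (SD, n = 6 each). The highest value of all was in wounded replicate 4, at -1.82, and the lowest were in untreated replicates 1 and 2, at -3.03 and -3.23, with 4 of 6 wounded arrays inside the untreated range.

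The log2 difference of AT1G09200, wounded minus untreated, was 0.24 ± 0.25 (SE, limma adjusted p = 0.685), or 1.18-fold with a 95% interval from 0.808-fold to 1.72-fold. Without wounded replicate 4 it was 0.14 ± 0.24 (n = 5 and 6, limma adjusted p = 0.773), with an interval from 0.769-fold to 1.59-fold. The difference was smaller than the spread within either group. Among the untreated arrays the averages of the alike pairs spanned 1.01 on the log2 scale, with -3.13 for replicates 1 and 2, -2.12 for 3 and 4 and -2.29 for 5 and 6. Within the 5 alike pairs, both groups together, the arrays differed by at most 0.32.

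AT1G13370, also on chromosome 1, is another gene of the H3 family, and whether it is made during DNA replication was not tested. Its deposited intensity in wounded plants ran from 0.0799 over a median of 0.0953 to 3.19, and in untreated plants from 0.122 over a median of 0.164 to 0.216. The value of 3.19 belonged to wounded replicate 4 and was 35.1 times the median of the other 5 wounded arrays. On that array the probe stood at the 96.6th percentile of all probes, and on the other 11 arrays between the 8.97th and the 23.7th. Apart from wounded replicate 4 the gene was thus among the dim probes on every array of both groups.

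The mean log2 intensity of AT1G13370 was -2.23 ± 2.15 in wounded plants and -2.82 ± 0.40 in untreated plants (SD, n = 6 each), a log2 difference of 0.60 ± 0.80 (SE, limma adjusted p = 0.736). The 95% interval of this 1.51-fold difference ran from 0.455-fold to 5.04-fold. Without wounded replicate 4 the wounded mean was -3.10 ± 0.34, and the difference was -0.27 ± 0.21 (n = 5 and 6, limma adjusted p = 0.502), or 0.829-fold with a 95% interval from 0.599-fold to 1.15-fold. The sign of the difference therefore turned on 1 array. Over these 11 arrays, 1 of the 5 wounded arrays lay above the untreated mean and 4 lay inside the untreated range.

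The wounded median of AT1G13370 was below the untreated one with all 12 arrays too, at -2.96 in wounded and -2.85 in untreated plants. Within alike pairs the probe differed by between 0.25 and 0.87 on the log2 scale. The upper end of that range exceeded the difference between the groups.

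**Figure D1:**
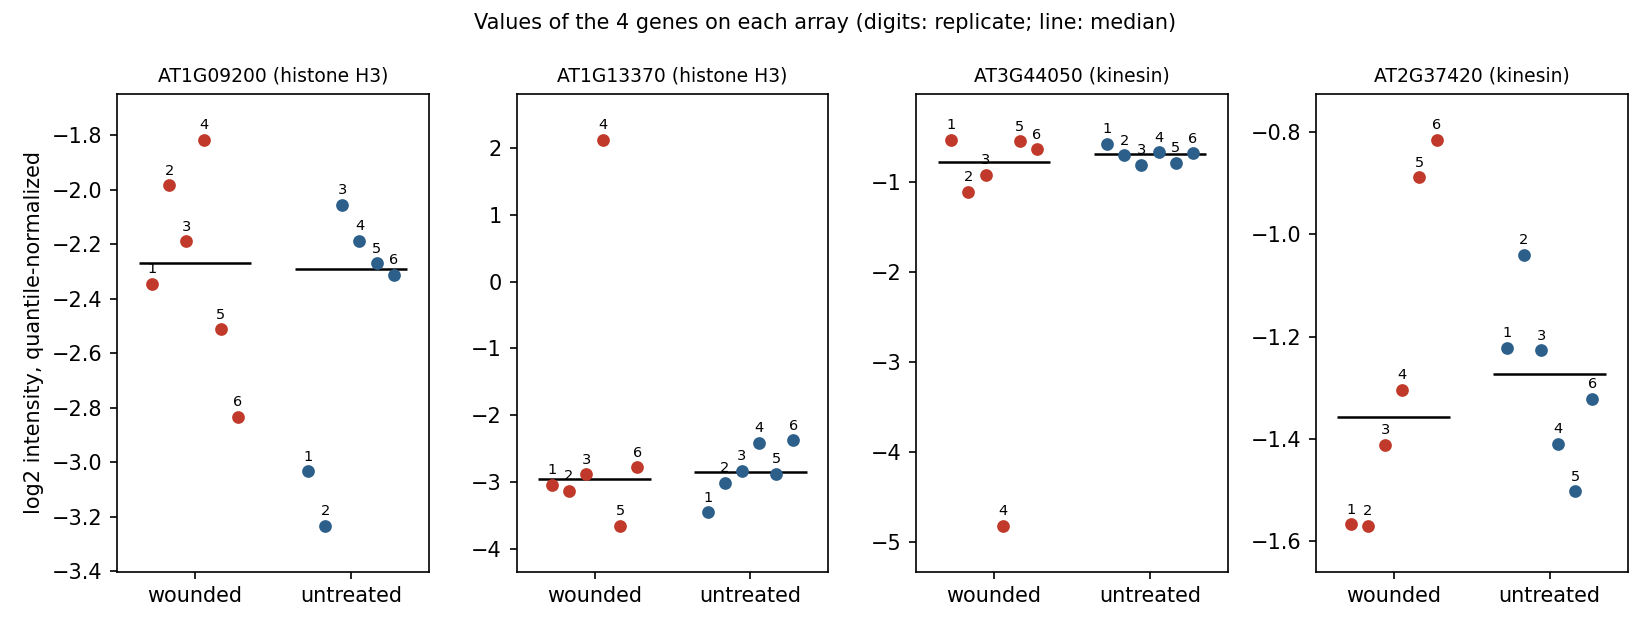
Each panel shows 1 gene, with the quantile-normalized log2 intensity on the y axis, wounded arrays (red) left of untreated arrays (blue), a point for each array with its replicate number, and a line at the group's median. Wounded replicate 4 lies far above the other arrays for AT1G13370, at 2.12, and far below them for AT3G44050, at -4.81, and the groups overlap in every panel.

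AT3G44050, on chromosome 3, belongs to the kinesin-12 family, whose plant members include motors of the phragmoplast. Its deposited intensity in wounded plants ran from 0.0410 over a median of 0.525 to 0.732, and in untreated plants from 0.590 over a median of 0.651 to 0.862. The lowest value was that of wounded replicate 4, at the 3.44th percentile of the probes of that array, while the other 11 arrays held the probe between the 50.9th and the 64.8th. Its intensity there was 0.0621 times the median of the other 5 wounded arrays. The kinesin and the H3 gene AT1G13370 were thus displaced on the same array in opposite directions.

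The mean log2 intensity of AT3G44050 was -1.43 ± 1.67 in wounded plants and -0.71 ± 0.08 in untreated plants (SD, n = 6 each), a log2 difference of -0.72 ± 0.62 (SE, limma adjusted p = 0.604). The 95% interval of this 0.606-fold difference ran from 0.240-fold to 1.53-fold. Without wounded replicate 4 the wounded mean was -0.75 ± 0.25 and the difference -0.05 ± 0.12 (n = 5 and 6, limma adjusted p = 0.868). This corresponds to 0.968-fold, with a 95% interval from 0.802-fold to 1.17-fold, the narrowest of the 4 genes. Its residual SD over the 11 arrays was 0.18, against a median of 0.31 over all probes tested, and 16.1 percent of them had a residual SD no larger.

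Among the 5 remaining wounded arrays, AT3G44050 was lower in replicates 2 and 3, at -1.11 and -0.92, than in replicates 1, 5 and 6, which lay between -0.64 and -0.54. The untreated arrays lay between -0.81 and -0.58. Wounded replicates 2 and 3 were below every untreated array on this scale and in the deposited intensities. Replicates 1 and 5 were above every untreated array on the normalized scale, but not in the deposited intensities, where wounded replicates 1 and 5 had 0.660 and 0.732, below untreated replicates 1 and 2 at 0.862 and 0.783.

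AT2G37420, on chromosome 2, belongs to the kinesin-5 family, known for motors that slide spindle microtubules apart. Its deposited intensity ran from 0.248 over a median of 0.333 to 0.624 in wounded plants, and from 0.377 over a median of 0.437 to 0.629 in untreated plants. The mean log2 intensity was -1.26 ± 0.33 in wounded plants and -1.29 ± 0.16 in untreated plants (SD, n = 6 each). The log2 difference was 0.03 ± 0.18 (SE, limma adjusted p = 0.950), or 1.02-fold with a 95% interval from 0.780-fold to 1.33-fold. It was 0.04 ± 0.17 without wounded replicate 4 (n = 5 and 6, limma adjusted p = 0.933, interval from 0.797-fold to 1.32-fold). On the array left out, this probe lay at -1.30, among the others.

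The wounded arrays of AT2G37420 lay on both sides of the untreated ones. After quantile normalization, replicates 5 and 6 were the highest of all 12 arrays, at -0.89 and -0.81, replicates 1 and 2 the lowest, at -1.57 each, and replicate 3 was at -1.41. The untreated arrays lay between -1.50 and -1.04. In the deposited intensities wounded replicates 5 and 6 had 0.589 and 0.624, and untreated replicate 2 was above them at 0.629. Wounded replicates 5 and 6 were an alike pair, and within the 5 alike pairs this probe differed by at most 0.18, less than the 0.72 between the lowest and the highest wounded average of the 11 arrays, with an alike pair taken as 1. Among the untreated pairs the averages spanned 0.28.

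For AT1G09200 the same wounded arrays stood the other way round after quantile normalization. Replicates 5 and 6 then had the lowest log2 intensities of the wounded group, at -2.51 and -2.83, and replicates 1 to 3 lay between -2.34 and -1.98. The deposited intensities did not show this order, with 0.192 and 0.153 in replicates 5 and 6 and between 0.156 and 0.183 in replicates 1 to 3.

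**Figure D2:**
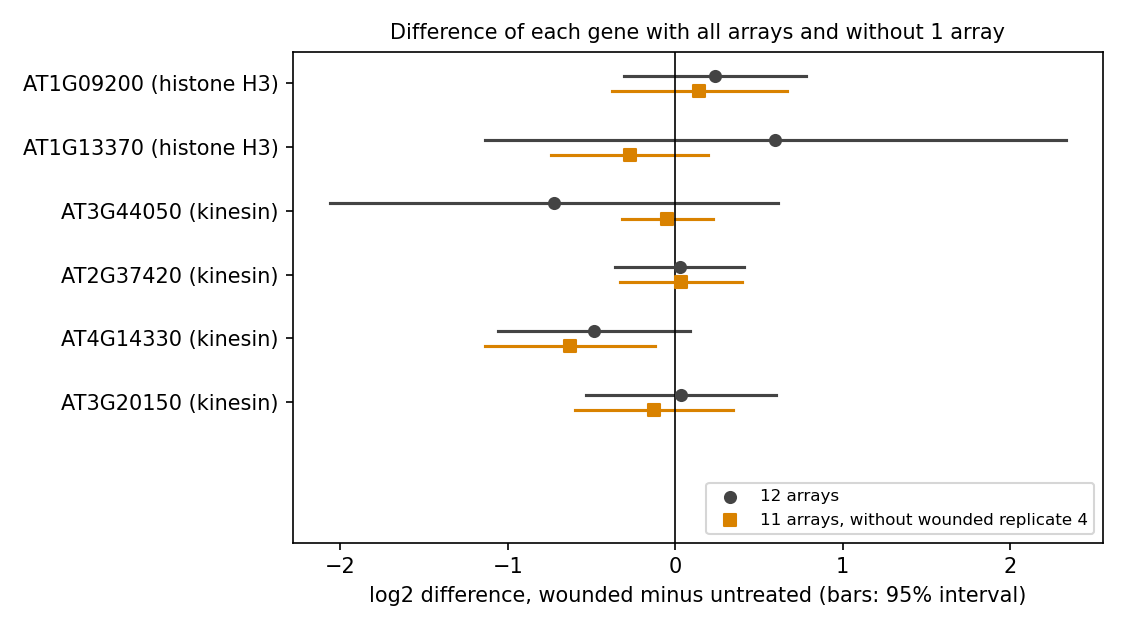
Log2 difference, wounded minus untreated, on the x axis for the 4 genes and for a further pair of kinesin genes, with bars for the 95% interval of the limma fit, over 12 arrays (circles) and over 11 without wounded replicate 4 (squares). The intervals of AT1G13370 and AT3G44050 were much wider with wounded replicate 4, and those of all 4 genes included 0 in both fits. That of AT4G14330 lay below 0 over 11 arrays, from -1.14 to -0.12. Both fits took alike arrays as separate samples.

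An exact permutation test over arrays, two-sided, gave p = 0.366 for AT1G09200, p = 0.879 for AT1G13370, p = 0.344 for AT3G44050 and p = 0.861 for AT2G37420 with 12 arrays, unadjusted for the 4 genes tested. Without wounded replicate 4, the exact permutation p was 0.593 for AT1G09200, 0.247 for AT1G13370, 0.688 for AT3G44050 and 0.853 for AT2G37420. With each array as a unit, the smallest p possible is 0.00216 for 6 against 6 and 0.00433 for 5 against 6. With alike pairs as units it would be larger. These tests, like the fits above, took the alike arrays as separate samples.

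When pairs of alike arrays were fitted as random blocks over the 11 arrays, the intervals were wider. The 95% interval of the fold difference was then 0.754 to 1.30 for AT3G44050 and 0.710 to 1.40 for AT2G37420. For the histone genes it was 0.712 to 1.72 for AT1G09200 and 0.406 to 1.71 for AT1G13370. Over 12 arrays with the same blocks, the interval ran from 0.146 to 1.66 for AT3G44050 and from 0.617 to 1.59 for AT2G37420. For the histone genes it then ran from 0.672 to 2.20 for AT1G09200 and from 0.320 to 12.8 for AT1G13370. Every one of these intervals included 1.

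The directions of the small differences depended on how arrays were scaled. Without scaling between arrays, the median log2 difference over all probes and 12 arrays was -0.32, against -0.02 after quantile normalization, and AT1G09200 had -0.11 and AT2G37420 had -0.30. Relative to that median, AT1G09200 was at 0.21, AT1G13370 at 0.48, AT3G44050 at -0.65 and AT2G37420 at 0.02. Over 11 arrays the median was -0.31, and relative to it AT1G09200 was at 0.09, AT1G13370 at -0.36, AT3G44050 at -0.03 and AT2G37420 at 0.02. Relative to the median of all probes, each of the 4 genes had the same sign under quantile normalization, median centring and the values as deposited, over 12 arrays and over 11 alike, but only AT1G13370 had opposite signs between the 2 sets of arrays.

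**Figure D3:**
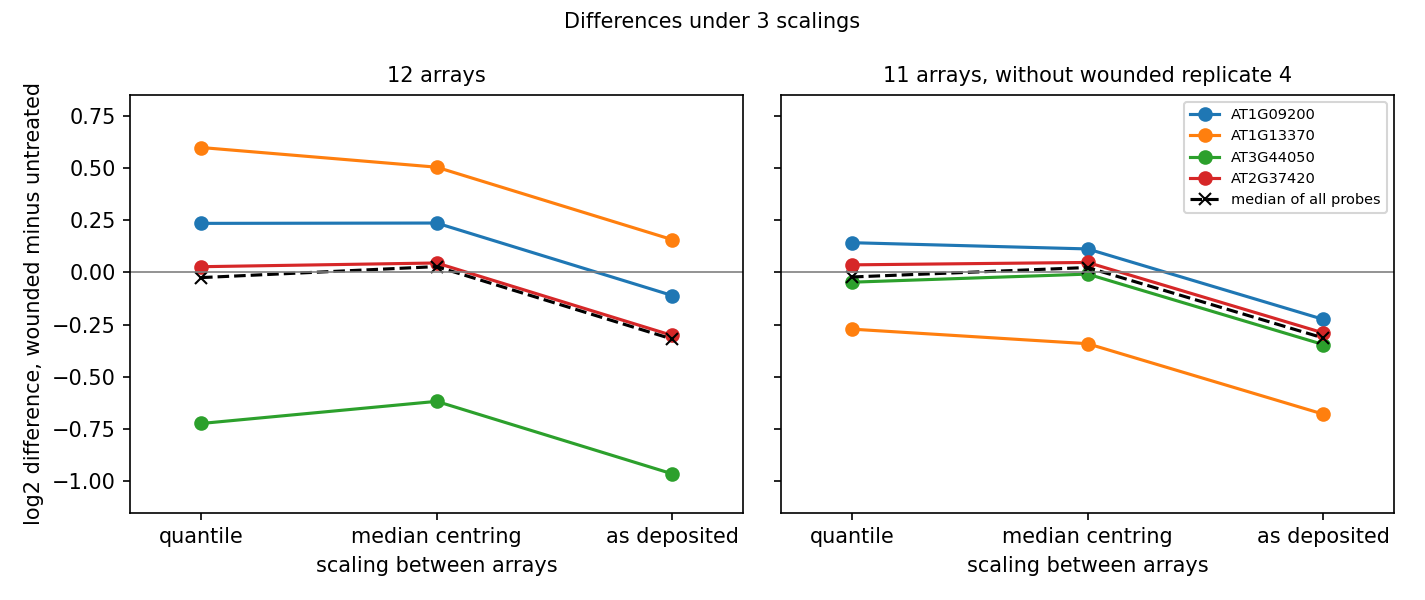
Log2 difference, wounded minus untreated, on the y axis for the 4 genes (coloured lines) and for the median of all probes tested (dashed line) under quantile normalization, median centring and the values as deposited, with 12 arrays on the left and 11 on the right. AT1G09200 and AT2G37420 lie above 0 under quantile normalization and median centring and below 0 with the values as deposited. Over 12 arrays the median of all probes lies at -0.02 under quantile normalization and at -0.32 with the values as deposited. Over 11 arrays it lies at -0.02 and -0.31.

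Lists of 178 genes of cell division, the 4 genes included, covered histones, kinesins and spindle or phragmoplast proteins, cyclins and their kinases, DNA replication and chromosome proteins, and tubulins. Of these, 7 had a single-gene probe, 3 of 46 histone genes and 4 of 30 kinesin, spindle or phragmoplast genes, and 12 more were named only by probes that also list further genes. No cyclin or kinase gene (55 listed), replication or chromosome gene (30) or tubulin gene (17) had a single-gene probe. Of the 6 of these genes that could be tested, 0 passed with limma over 12 arrays and 0 over 11, beside the 0% and 2.22% of all probes given above. Their median log2 difference was 0.03 over 12 arrays and -0.09 over 11, against -0.02 and -0.02 for all probes.

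AT4G14330, known as PAKRP2, encodes a kinesin of the phragmoplast. Its log2 intensity in wounded plants ran from -3.54 over a median of -2.59 to -1.92, and in untreated plants from -2.50 over a median of -2.14 to -1.79. The log2 difference was -0.48 ± 0.26 over 12 arrays (SE, n = 6 each, limma adjusted p = 0.490) and -0.63 ± 0.23 over 11 (n = 5 and 6, limma adjusted p = 0.155, unadjusted p = 0.0191). All 5 wounded arrays of the smaller set lay below the untreated mean of -2.16. Wounded replicate 4, left out of that set, lay above it at -1.92. The lowest values, -3.54 and -3.05, were those of wounded replicates 2 and 3, an alike pair. This fit took alike arrays as separate samples, and intervals with random blocks are given only for the 4 genes. On those 11 arrays the probe was dim, between the 9.79th and the 34.7th percentile. Over those 11 arrays 20.8% of the probes tested reached an unadjusted p under 0.05.

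AT3G20150, another kinesin gene, had a log2 difference of 0.03 ± 0.26 over 12 arrays (SE, n = 6 each, limma adjusted p = 0.958) and -0.13 ± 0.22 over 11 (n = 5 and 6, limma adjusted p = 0.778). Its highest value, at -1.49, was again that of wounded replicate 4. The histone H3 gene AT5G65360 was listed at 0 on all 12 arrays and had no value to test where zeros were taken as missing. AT2G37420 was also named by 1 probe together with further genes, which is not used here.

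The genes whose log2 values followed each member most closely over the 11 arrays were sought among 612 single-gene probes measured on all of them. For AT3G44050 these were OTP85 (r = 0.917), an editing factor of the chloroplast, AT3G32940 (r = 0.870) and AT3G15140 (r = 0.860). For AT2G37420 they were AT3G15900 (r = 0.918), AT1G71910 (r = 0.895) and AT3G58830 (r = 0.879). For AT1G09200 they were AT3G26630 (r = 0.935), AT2G25870 (r = 0.916) and AT4G26370 (r = 0.913).

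For AT1G13370 the closest were AT4G08280 (r = 0.887), AT2G29870 (r = 0.799) and AT4G21820 (r = 0.756). These are the highest of many values over arrays that include alike pairs, and they are given as a description. With wounded replicate 4 included, r became -0.848 for AT4G08280 and -0.887 for AT4G21820 with AT1G13370, and -0.204 for AT4G26370 with AT1G09200. None of the 4 genes was among the closest 3 of another.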

How the data were processed

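The authors deposited a table of linear intensity values, not below 0 on any of the 12 arrays. Its array type, background correction and scaling were not given in the sources used. Groups and replicate numbers came from the sample titles. Genes were taken from the platform annotation, which may be out of date, and updated to the RefSeq table of TAIR10.1 (690 of 692 single-gene probes matched). Coordinates are left out, since the table names no build. Zeros were taken as missing, all other values were log2-transformed and, as the array medians spread over 0.825, quantile-normalized. Probes measured on at least 4 arrays of each group were fitted with limma 3.58.1 in R 4.3.3 (lmFit and eBayes, two-sided, no block), with Benjamini-Hochberg adjustment over all probes. The number of arrays limits the precision. The replicate numbers were checked as pairs: the correlation of deviations from the group means was over 0.1 for 0 of 6 numbers. The fit was also run on simulated data with noise drawn independently for each array, a setting that does not cover alike arrays. The 4 genes and the lists were chosen with earlier results of these data known. Named are the 4 genes, listed genes with a single-gene probe, and the 3 probes closest to each of the 4. Alternatives covered scaling, blocks, filters, an offset of 0.1, trend, weights and left-out arrays. Figures were drawn with matplotlib 3.10.9.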

Additional observations from a re-analysis of the deposited data

Results flagged for a closer look

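Wounded replicate 4 stood far from the other 5 wounded arrays for both AT1G13370 and AT3G44050. It was the highest for AT1G13370, where its gap to the nearest wounded array was 0.849 of the whole range, and the lowest for AT3G44050, where that share was 0.865. Both shares are above Dixon's 95% critical value, which chance passes in about 1 in 20 groups. The untreated arrays of both genes held no array so placed. Neither did either group of AT1G09200, AT2G37420, AT3G20150 and AT4G14330. This array also correlated less with the other arrays over all probes, as given above, and the cause was not tested.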

How the results depend on the processing

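None of the 4 genes passed the threshold of 0.05 under any alternative run. Of the listed genes tested, 0 did (6 of them, 7 with zeros kept under the offset and 5 under the filter on dim probes). The gene added by the offset, AT5G65360, was at 0 on all 12 arrays and could not pass. Among the 4 genes the lowest adjusted p in limma was 0.0747, for AT1G13370 over 11 arrays with the values as deposited. Over 12 arrays the sign turned with the values as deposited for AT1G09200 (-0.11) and AT2G37420 (-0.30), and with array weights for AT1G13370 (-0.22) and AT2G37420 (-0.057). For AT2G37420 it also turned with alike arrays fitted as a random block (-0.014) or averaged (-0.016). Over 11 arrays the values as deposited gave -0.22 for AT1G09200 and -0.29 for AT2G37420, and AT2G37420 was at -0.027 with array weights, -0.0073 with the random block and -0.016 with alike arrays averaged. Leaving out each array in turn over 12 arrays gave 0.092 to 0.35 for AT1G09200, -0.27 (without wounded replicate 4) to 0.88 for AT1G13370, -0.90 to -0.047 for AT3G44050 and -0.061 to 0.090 for AT2G37420. Leaving out 1 further array gave -0.00081 to 0.26 for AT1G09200, -0.40 to -0.13 for AT1G13370, -0.10 to 0.043 for AT3G44050 and -0.072 to 0.12 for AT2G37420.

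Over all probes and 12 arrays the count past the threshold was 0, but 7 with the values as deposited, 1 with the offset, 179 with array weights, and 0 to 71 without each array in turn (71 without wounded replicate 4). Over 11 arrays it was 71 (31 higher, 40 lower), but 137 with the offset, 119 with array weights, 211 at a threshold of 0.1, and 0 with alike arrays as a random block or averaged. Without scaling the split was 6 higher and 81 lower and 48 higher and 24 lower after median centring. A further array left out gave 2 (without untreated replicate 4) to 125 (without wounded replicate 1). With the replicate block 0 probes passed over 12 arrays and 0 over 11, and AT1G09200 had 0.21, AT1G13370 -0.19, AT3G44050 -0.040 and AT2G37420 0.012 over 11. In the check of replicate numbers as pairs, no wounded array correlated best with its own number. That check used group means that include wounded replicate 4, so it cannot exclude that the numbers pair samples. AT1G13370 has no value under the filter on dim probes, which removed it. Averaging or counting several probes of a locus was not run, since each locus had 1. The causes of these shifts were not tested.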
